A study of Mus musculus with 192 samples.

Results

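The hindbrain of L44 mice at time point T2, collected in the afternoon (PM), was examined in 11 pools, 3 hemizygous (HEM), 3 homozygous (HOM) and 5 nontransgenic (NON), of the 192 pools of the series. The pools were chosen by their labels for time point, region, genotype and collection time. By the study's methods, T2 is the onset of diabetes in transgenic mice, defined by repeated high blood glucose, with NON mice as controls, so that genotype and raised blood glucose cannot be told apart in any comparison with NON. HEM and HOM mice carried a transgene for human amylin with extra proline residues, expressed from the rat insulin 2 promoter, which is active mainly in pancreatic β-cells, and NON mice lacked it. All were males of a single transgenic line on the FVB/n strain, and the hindbrain dissection included the cerebellum. A pool combines RNA from 2 mice in equal parts, and the spread between pools therefore understates that between mice. The study matched NON controls to transgenic mice by litter or, failing that, by age. The labels give ages and not litters, and do not say which of the 5 NON pools were meant for which genotype. The caption of the study's expression figure counts 3 NON pools at T2 PM, without naming them, where the labels give 5. All 5 were used, and with the 3 of closest age for each genotype 1 gene passed the test in HEM (Foxo1) and 1 in HOM (Ramp2). The labelled ages were 90 to 243 days in HEM, 100 to 246 days in HOM and 90 to 243 days in NON mice. Pools are named by their mouse numbers, and values below follow the order 2/15, 4/13, 5/10, 6/9 and 11/14 in NON, 5/10, 7/12 and 8/14 in HEM, and 4/8, 6/9 and 7/10 in HOM.

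Amylin is co-secreted with insulin and limits food intake largely through neurons of the area postrema, a hindbrain site open to the circulation, which relay to the nucleus of the solitary tract. Its receptors are the calcitonin receptor paired with a receptor activity-modifying protein (Ramp), and insulin and leptin signal in the same regions through kinase cascades. Such signals alter the activity of neurons that make feeding peptides, and c-Fos, an immediate early gene, is widely read as a marker of recent neuronal activation.

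On the nCounter platform, barcoded probes were counted for 43 target genes without amplification. The total over the target genes was 112974 counts in the NON pool 5/10, the lowest, and 252890 in the HEM pool 5/10, the highest. A normalised count is a count divided by the geometric mean of 3 reference genes in that pool and multiplied by the mean of that quantity over the 11 pools. The reference mean was 3502 to 7450.2 counts, and background, set at 2 SD above the mean of the negative probes, was 9.38 to 22.0 counts. In all 11 pools, 40 genes exceeded background. The exceptions were Iapp, the mouse amylin gene (above it in 6 pools), Ins1 (7 pools) and Ins2 (8 pools), whose raw counts ran from 10 to 30. The amylin probe was designed to the mouse transcript, and whether it also reads the human transgene was not tested, so the genotype labels were not checked by it. No gene of the panel defines the hindbrain, but the peptides of the lateral hypothalamus that mark the midbrain dissection were low here. Mch had 131 ± 12.6 normalised counts in NON hindbrain against 24475 ± 3310.4 in NON midbrain (SD, n = 5 each), and Hcrt had 20.7 ± 4.44 against 849 ± 71.0. Other genes taken below as markers of the hypothalamus separated these regions less. Agrp was 30.3 to 59.2 in NON hindbrain and 79.8 to 126 in NON midbrain. Pomc (208 ± 140 against 293 ± 74.1) and Hdc (219 ± 21.6 against 266 ± 47.5) overlapped between the regions. Pomc and Hdc therefore cannot show whether the dissection was clean.

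Both transgenic groups were set against NON and against each other. Genes were tested with edgeR (quasi-likelihood), p-values were adjusted over the 43 genes by the method of Benjamini and Hochberg, and a gene was called at an adjusted p under 0.05. In HEM pools, 3 genes rose and 0 fell, which is 6.98% of the 43 genes. They were Ramp2, a Ramp subunit, Foxo1, a transcription factor that insulin holds out of the nucleus through Akt, and Arrb1, the β-arrestin that uncouples activated receptors. In HOM pools 0 genes passed (0% of 43, with 3 at an unadjusted p under 0.05), and HOM against HEM also gave 0 (0%, with 3 at an unadjusted p under 0.05). The mean of both genotypes against NON gave the same 3 genes as HEM, again 6.98%. All of the called changes were small, under 1.5-fold, and 0 genes passed with a log2 fold-change above 0.58. Leaving out the HEM pool 7/12 left 0 genes called in HEM, and leaving out the NON pool 4/13 or 6/9 left 1. Over the 11 fits that left out a pool, the lowest HEM log2 fold-changes were 0.28 for Ramp2, 0.28 for Foxo1 and 0.15 for Arrb1. With all pools they were 0.33, 0.33 and 0.17. With pools of like labelled age as a block, 0 genes passed in any of the 4 comparisons. HEM and NON pools did not overlap for 6 of the 40 genes above background (15.0%), 5 of them higher in HEM, and HOM and NON pools for 1 (2.50%). The HEM and HOM comparisons share their 5 NON pools and are not independent. In whole tissue, fewer cells of a type and less RNA per cell cannot be told apart.

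**Figure D1:**
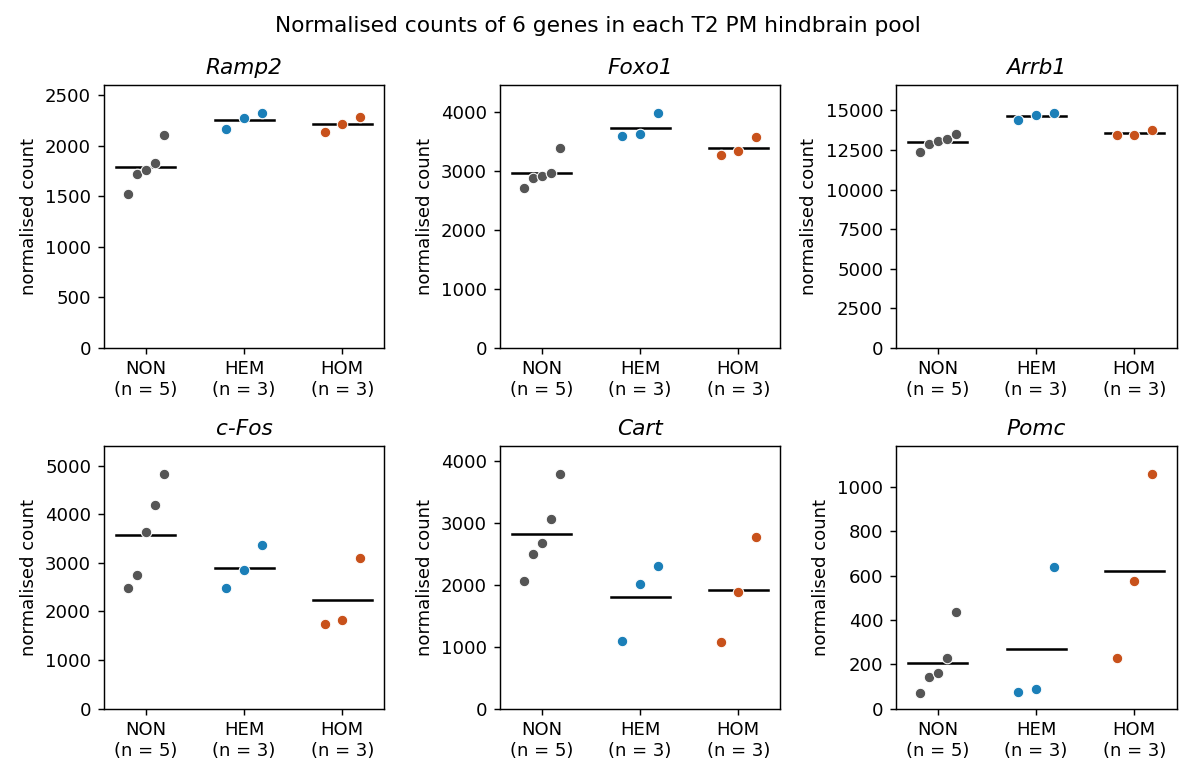
Normalised counts (y axis, linear from 0) of 6 genes in each T2 PM hindbrain pool, with 1 point per pool and a line at each group mean. All 6 transgenic pools lay above all 5 NON pools for Ramp2, HEM but not HOM pools lay apart from NON for Foxo1 and Arrb1, and c-Fos, Cart and Pomc were widely spread within groups.

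The promoter regions of 3 genes the results turn on are shown because Foxo1 is one of the called genes, and c-Fos and Cart had the most negative log2 fold-changes over both genotypes. They are the 250 bases before the annotated start from RefSeq (build GRCm38.p6), for Foxo1 at chr3:52268087-52268336 (+ strand), c-Fos (Fos) at chr12:85473640-85473889 (+ strand) and Cart (Cartpt) at chr13:99900684-99900933 (- strand), each written 5′ to 3′ along its gene. Capitals mark TGACG or its reverse complement CGTCA, the half-site that cAMP-responsive factors are known to bind, sought on both strands and allowed to overlap.
Foxo1: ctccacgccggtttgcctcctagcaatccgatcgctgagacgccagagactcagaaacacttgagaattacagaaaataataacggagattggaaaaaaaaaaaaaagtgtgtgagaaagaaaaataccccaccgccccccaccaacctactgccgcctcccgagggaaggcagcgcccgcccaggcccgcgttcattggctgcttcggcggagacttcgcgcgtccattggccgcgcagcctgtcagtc
c-Fos: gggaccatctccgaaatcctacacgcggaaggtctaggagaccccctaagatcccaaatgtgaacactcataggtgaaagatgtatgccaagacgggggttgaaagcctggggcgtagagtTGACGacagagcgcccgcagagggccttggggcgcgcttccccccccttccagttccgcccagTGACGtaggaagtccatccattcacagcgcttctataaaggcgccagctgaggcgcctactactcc
Cart: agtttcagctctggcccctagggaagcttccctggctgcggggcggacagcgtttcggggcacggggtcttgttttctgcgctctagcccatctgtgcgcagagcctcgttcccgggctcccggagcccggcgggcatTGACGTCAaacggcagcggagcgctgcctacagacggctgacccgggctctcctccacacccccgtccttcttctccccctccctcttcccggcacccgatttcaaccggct
The c-Fos window held 2 matches, ending 125 and 62 bases before the start. In Cart the 2 matches overlap on opposite strands, ending 108 and 105 bases before the start, and the Foxo1 window held 0. The half-site is found in 17.8% of 32851 such windows of 250 bases. These matches describe the sequence only, and binding was not measured.

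Among the amylin receptor genes, Ramp2, whose protein with the calcitonin receptor forms an amylin receptor and with the calcitonin receptor-like receptor an adrenomedullin receptor, had 1760.4, 1824, 1716, 1518 and 2106 normalised counts in the NON pools. The HEM pools had 2322, 2269.9 and 2161 and the HOM pools 2214, 2284 and 2138. Every transgenic pool was thus higher than the highest NON pool, 11/14, and the other 4 NON pools lay clearly lower. This was the 1 gene of the 40 above background (2.50%) whose 6 transgenic pools did not overlap with NON. The group means were 1785 ± 213 in NON (SD, n = 5), 2251 ± 82.2 in HEM and 2212 ± 73.3 in HOM (SD, n = 3 each). The log2 fold-change was 0.33 in HEM (SE 0.09, adjusted p = 0.0495) and 0.31 in HOM (SE 0.09, adjusted p = 0.245), and the mean of both was 0.32 (SE 0.075, adjusted p = 0.0209). The HEM value stands just inside the threshold and was lost in 10 of the 11 fits that left out a pool, and the call over both in 6 of them and in 4 of 15 other alternatives. The HEM call was also lost in 11 of 18 other alternatives. HOM against HEM differed by -0.025, with a 95% interval of -0.25 to 0.20 on the log2 scale. With the age-matched NON pools the HEM value was 0.33 and not called (adjusted p = 0.192, against 0.00883 to 0.698 over all alternatives), and the HOM value was 0.39 (adjusted p = 0.0403, against 0.0166 to 0.491 over all alternatives).

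The other subunits did not pass in any of the 4 comparisons. Ramp1 had 4199.9, 4304, 4509.8, 4732 and 4283 normalised counts in NON, 5176, 4638 and 4069 in HEM and 4295, 4663 and 4169 in HOM, and Ramp3 had 526, 771, 687, 622 and 759, 773, 668 and 581 and 696, 848 and 633 in the same order. Both genotypes overlapped with NON for each. Calcr, the calcitonin receptor itself, had 343, 336, 341, 330.0 and 336 in NON, a narrow range, while all HEM pools (299, 296 and 313) fell short of the lowest NON pool. In HOM it had 384, 287 and 363, with 2 pools above every NON pool and 1 below. The log2 fold-change of Calcr was -0.16 for HEM (adjusted p = 0.378) and, for HOM, 0.035 (adjusted p = 0.949). The difference between HOM and HEM was 0.19 (adjusted p = 0.549). It became the only call of that comparison, with a log2 difference of 0.31 and an adjusted p of 0.0495, when the HOM pool 6/9 was left out (0.0495 to 0.926 over all alternatives). Probes for its isoform variants counted little, with Calcr-1a at 70.8, 61.7, 60.8, 48.6 and 46.4 in NON, 42.1, 51.8 and 54.3 in HEM and 61.6, 62.0 and 73.6 in HOM. The HOM pools lay above the HEM pools for Calcr-1a (log2 difference 0.41, SE 0.18, adjusted p = 0.549), and both ranges overlapped with NON. Of the 7 genes of the amylin list, 1 rose in HEM and 0 in HOM, beside 6.98% and 0% of all 43 genes, and the median log2 fold-change of its 6 members above background was 0.038 and 0.13, against 0.092 and 0.036 over all 40 such genes.

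Of the 3 genes for receptor desensitisation, Arrb1 had 13484, 12906, 13045, 12356 and 13191 normalised counts in NON and 14833, 14735 and 14369 in HEM, all HEM pools being higher. The HOM pools had 13459, 13780.0 and 13433, at the upper end of the NON range with 1 pool beyond it. Its log2 fold-change was 0.17 in HEM (SE 0.032, adjusted p = 0.011), the smallest of the called changes at 12.7%, and 0.061 in HOM (SE 0.032, adjusted p = 0.535). The HEM call of Arrb1 was lost in 1 of the 11 fits without a pool and in 10 of 18 other alternatives, and the call over both genotypes in 5 of 11 and 10 of 15. HOM pools were lower than HEM pools without overlap, by a log2 difference of -0.11 (95% interval -0.19 to -0.031, adjusted p = 0.234), which did not pass. Arrb2, the other β-arrestin, and Adrbk1, the kinase Grk2 that marks active receptors for arrestin, did not pass either. Adrbk1 had 9522, 9344 and 9013 in HEM, above every NON pool (8168, 8708, 8773, 8329 and 8956), with a log2 fold-change of 0.11 (adjusted p = 0.212). The median of the 3 was 0.11 in HEM and 0.067 in HOM.

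Within the insulin list, Foxo1 had 2706, 2877, 3398, 2924 and 2977 normalised counts in NON, 3591, 3986 and 3636 in HEM and 3282, 3583 and 3338 in HOM. The HEM pools were higher than every NON pool, and the HOM pools exceeded all but NON 5/10, which 1 HOM pool also passed. The log2 fold-change was 0.33 in HEM (SE 0.073, adjusted p = 0.0208), 0.19 in HOM (SE 0.074, adjusted p = 0.348) and 0.26 over both (SE 0.061, adjusted p = 0.0209). The HEM call was lost in 3 of the 11 fits without a pool and in 7 of 18 other alternatives. The call over both was lost in 6 of the 11 fits that left out a pool and in 5 of 15 other alternatives. HOM differed from HEM by -0.14 (95% interval -0.32 to 0.046, adjusted p = 0.549). Insr, the insulin receptor, had 2969, 3226, 3148, 3070.4 and 3307 in NON, 3646, 3626 and 3277 in HEM and 3201, 3376 and 3131 in HOM. The HEM pools 5/10 and 7/12 topped every NON pool and 8/14 did not (log2 fold-change 0.16, adjusted p = 0.131), and HOM gave 0.042 (adjusted p = 0.949). Gsk3b, a kinase that Akt inhibits, was 16412, 16912 and 15919 in HEM against 15323, 15569.7, 15339.5, 14844 and 15462 in NON, without overlap but with a log2 fold-change of only 0.10 (SE 0.028, adjusted p = 0.051). Its HOM pools (15065, 15331 and 15152) fell within the NON range, and the HOM to HEM difference of -0.11 (95% interval -0.18 to -0.042, adjusted p = 0.208) had the lowest p of that comparison.

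The rest of the cascade did not pass. Irs2, an insulin receptor substrate, had 2214, 2584, 2650.2, 2841 and 2854 in NON, 3675, 2851 and 2694 in HEM and 2694, 2715 and 2526 in HOM, with the HEM pool 5/10 above all other pools. That pool was the highest of 11 for 8 of the 14 insulin list genes above background, and for 14 of all 40, more than any other pool. The kinases Akt1 and Akt2, Irs1 and mTor, and the chromatin gene Hdac5, were highest in it: Akt2 had 1781 against 1373 and 1166 in the other HEM pools, and Hdac5 had 9741 against 7272 and 7172. It also had the largest total count, and the part of that in these values was not tested. Of the 16 insulin list genes, 1 rose in HEM, 0 fell, and 0 passed in HOM, beside 6.98% and 0% of all 43 genes. They include Pdk1, whose probe by its RefSeq match is pyruvate dehydrogenase kinase 1, a mitochondrial enzyme, and not the kinase Pdpk1 that acts upstream of Akt. The median of the 14 above background was 0.13 in HEM and 0.035 in HOM, and for HOM against HEM it was -0.11, beside -0.056 for all 40 genes. Without Pdk1 the median was 0.14 in HEM and 0.033 in HOM.

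**Figure D2:**
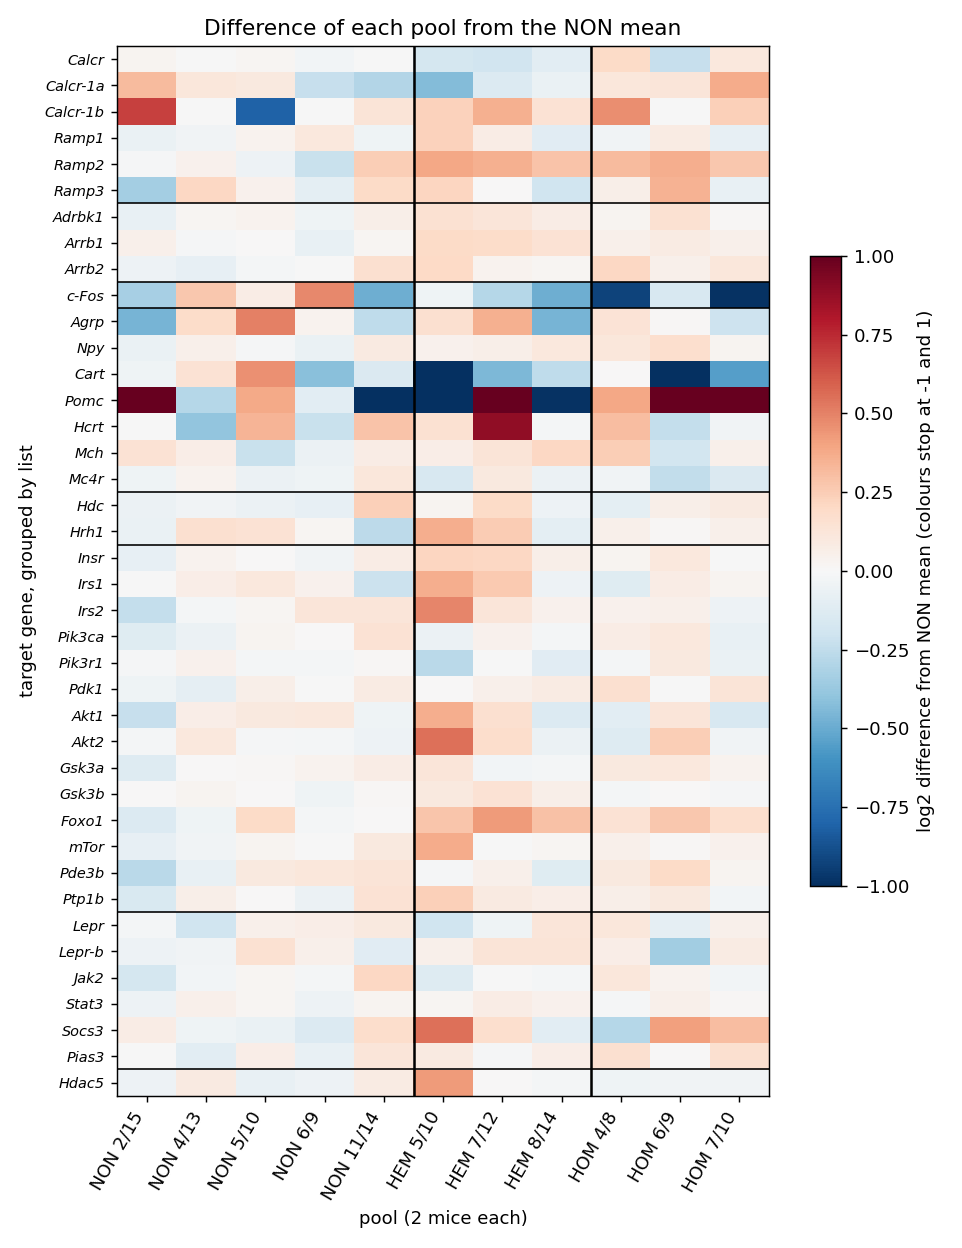
Log2 difference of each pool (columns) from the NON mean for the 40 genes above background (rows, grouped by list and separated by lines), with red above and blue below the NON mean and colours that stop at -1 and 1. The Ramp2 and Foxo1 rows are red across the transgenic pools, the HEM pool 5/10 is red for many insulin list genes, and the Pomc and Cart rows vary from pool to pool in every group.

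The activity gene c-Fos had 2756, 4180.3, 3644, 4831 and 2478 normalised counts in NON, 3359, 2843 and 2476 in HEM and 1824, 3104 and 1749 in HOM. The HOM pools 4/8 and 7/10 were lower than every NON pool, while HOM 6/9 lay among them, and the HEM pools overlapped with NON apart from the lowest, which was just under it. The log2 fold-change was -0.69 in HOM (95% interval -1.24 to -0.13, adjusted p = 0.348) and -0.31 in HEM (95% interval -0.85 to 0.24, adjusted p = 0.486). Neither passed, nor did their difference of -0.38 (95% interval -0.99 to 0.23). The HEM value turned to 0.14 when only the NON pools 2/15 and 11/14 were used, and the HOM value without its pool 6/9 was -1.002 (adjusted p = 0.135, against 0.0555 to 0.978 over all alternatives).

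Of the 7 genes of the feeding list none passed, beside 6.98% of all 43 genes in HEM and 0% in HOM, and 2 of them varied widely between pools. Cart, whose peptide curbs food intake, had 2677, 3056, 3793, 2069 and 2493 normalised counts in NON, 1087, 2018 and 2311 in HEM and 2774, 1075 and 1886 in HOM. In each genotype 2 of 3 pools were below the lowest NON pool, and HEM 5/10 and HOM 6/9 had the lowest values of all. The log2 fold-change was -0.64 in HEM (95% interval -1.35 to 0.066, adjusted p = 0.34) and -0.56 in HOM (95% interval -1.26 to 0.15, adjusted p = 0.559). Over both it was -0.60 (adjusted p = 0.299). Single pools weighed on these values: HEM gave -0.38 without its pool 5/10, and HOM gave -0.27 without 6/9 and -0.93 without 4/8.

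Pomc, the precursor of melanocortins that reduce feeding and of pituitary ACTH, ran from 70.1 to 1059 normalised counts. It had 437, 143, 227, 162 and 70.1 in NON, 76.0, 639.9 and 87.8 in HEM and 228, 576 and 1059 in HOM. The pools HOM 6/9, HOM 7/10 and HEM 7/12 were above every NON pool, and the other 2 HEM pools were near the lowest NON pool. The HOM log2 fold-change of 1.57 was the largest of any gene (95% interval -0.10 to 3.24, adjusted p = 0.535). It was 0.94 without HOM 7/10 and 2.06 without NON 2/15. HEM gave 0.35 (adjusted p = 0.778), which turned to -1.35 without HEM 7/12. Of the 5 genes taken as markers of the hypothalamus (Hcrt, Mch, Agrp, Pomc and Hdc), all were above background in every pool. Pomc was the most abundant of them in the pools where it was high: the summed level was 1483 in HOM 7/10 and 499.7 in HEM 8/14, but 424 and 412 without Pomc. In HEM 7/12 the sum was 1123, and 483 without Pomc, the highest such sum of the 11 pools (391 to 455 in NON). Leaving out this pool left 0 genes called in HEM, while the HEM log2 fold-change of Foxo1 was 0.28 without it and 0.33 with it. The part of these markers in the HEM calls was not tested. Hcrt was 20.2, 15.4, 25.6, 17.4 and 24.6 in NON, 22.6, 37.5 and 20.0 in HEM and 25.1, 17.1 and 19.8 in HOM, highest in HEM 7/12, and Mch was 112 to 144 in NON, 137 to 151 in HEM and 115 to 155 in HOM. Hcrt had a log2 fold-change of 0.36 in HEM (adjusted p = 0.424). No marker of the pituitary other than Pomc is on the panel, and its part was not tested.

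Npy, a peptide that drives feeding, was steady, with 3742, 4052, 3887, 3727 and 4159 in NON, 4020.5, 4082 and 4199.9 in HEM and 4225, 4399 and 3994 in HOM. The HOM pools 4/8 and 6/9 exceeded every NON pool, with a log2 fold-change of 0.10 (95% interval -0.012 to 0.22, adjusted p = 0.535). Agrp, the melanocortin antagonist, was low, with 30.3, 47.4, 59.2, 42.8 and 35.1 in NON, 46.6, 53.6 and 30.3 in HEM and 46.0, 42.2 and 36.2 in HOM. The HEM pool 8/14 was just under the lowest NON pool, and the other transgenic pools lay within the NON range. Mc4r, the melanocortin receptor, had a log2 fold-change of -0.037 in HEM and -0.14 in HOM (adjusted p = 0.778 and 0.559). The histamine genes Hdc, which makes histamine, and Hrh1, its receptor, had 0.051 and 0.18 in HEM and 0.015 and 0.031 in HOM, and neither passed.

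None of the 6 leptin genes passed, where 6.98% of all 43 genes did in HEM and 0% in HOM. Lepr-b, the signalling form of the leptin receptor, had 157, 159, 181, 169 and 151 in NON, 168, 178 and 178 in HEM and 170.3, 128 and 172 in HOM, with HOM 6/9 the lowest of all pools. Socs3, which Stat3 induces and which then inhibits leptin and insulin signals, had 33.4, 30.8, 30.4, 28.9 and 36.0 in NON, 46.6, 35.7 and 29.5 in HEM and 26.1, 42.2 and 39.5 in HOM. Its HEM pool 5/10 and HOM pools 6/9 and 7/10 were higher than every NON pool, and its log2 fold-changes were 0.22 in HEM (95% interval -0.19 to 0.63, adjusted p = 0.486) and 0.15 in HOM (95% interval -0.27 to 0.58, adjusted p = 0.949). The list's median was 0.046 in HEM and 0.03 in HOM.

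**Figure D3:**
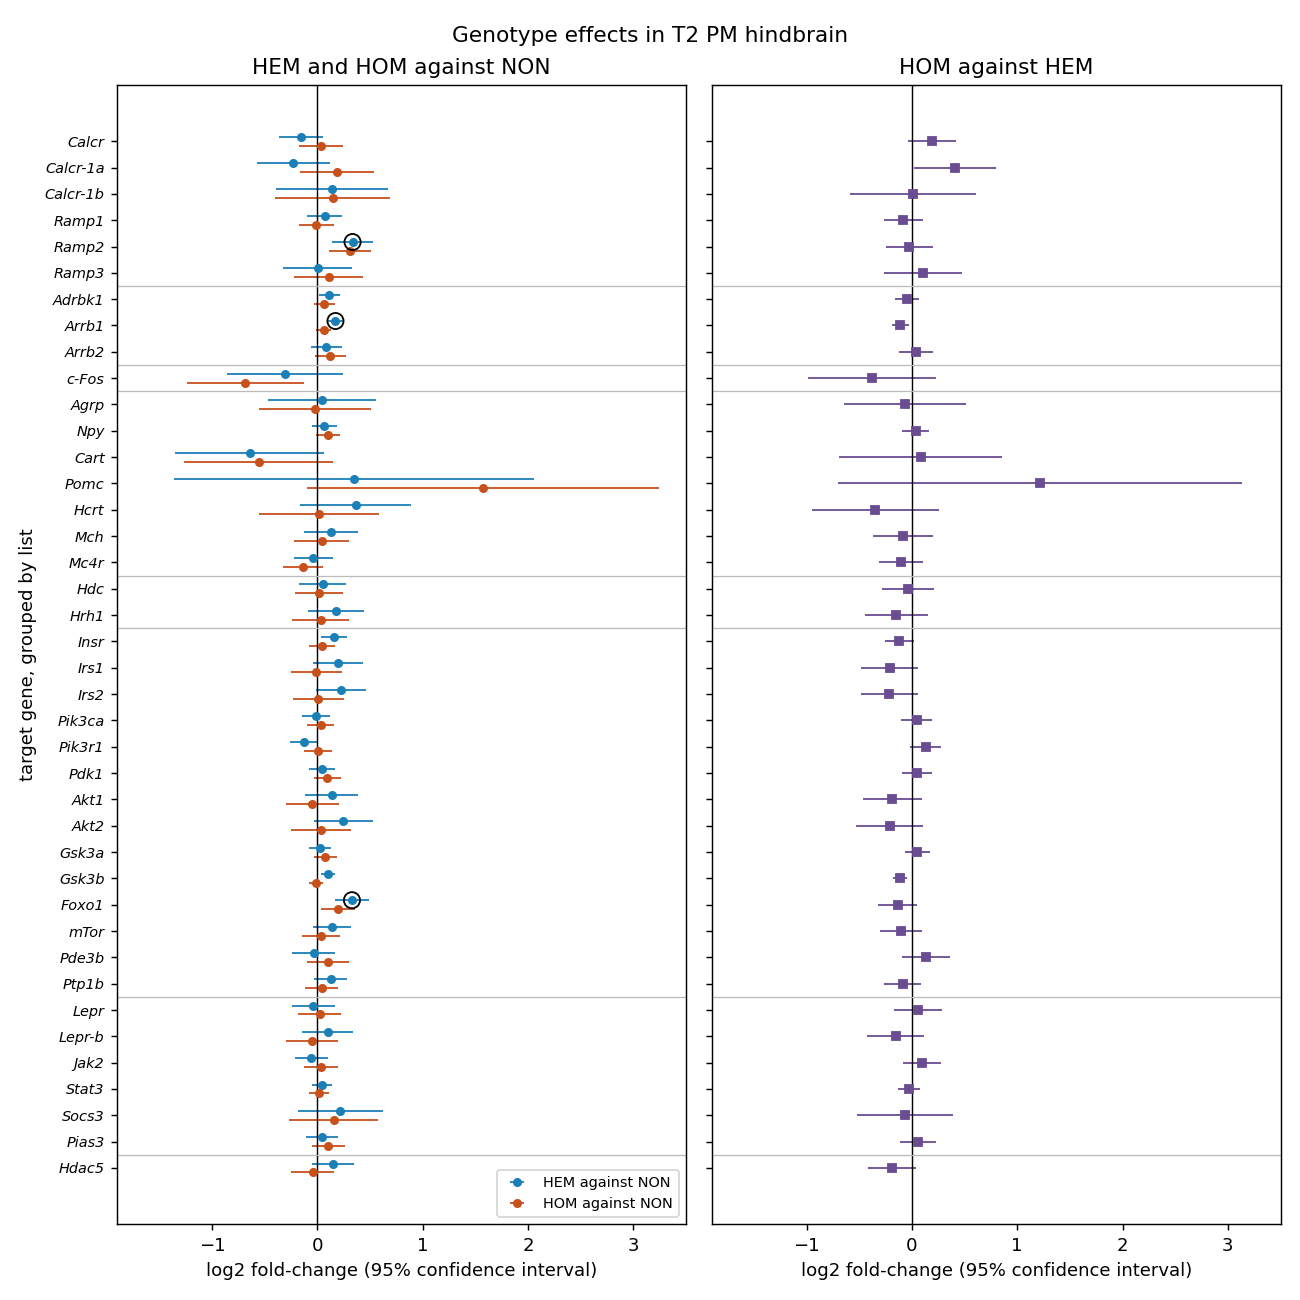
Log2 fold-changes with 95% confidence intervals for the 40 genes above background, HEM (blue) and HOM (orange) against NON on the left and HOM against HEM on the right, with black rings around adjusted p under 0.05. Only Ramp2, Arrb1 and Foxo1 in HEM carry a ring, most intervals are narrow around 0, and those of Pomc, Cart and c-Fos are wide.

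The 2 genotype effects were compared across genes by the direct test of HOM against HEM. For 33 of the 40 genes above background, the 95% interval of the difference lay within 1.5-fold in either direction, and for the others the depth and spread allow a larger one. The HOM and HEM pools did not overlap for 5 of the 40 (12.5%): Arrb1, Foxo1, Gsk3b and Hdac5 were lower in HOM and Calcr-1a was higher. The 5 genes with the largest differences in size were Pomc (1.22), Calcr-1a (0.41), c-Fos (-0.38), Hcrt (-0.35) and Irs2 (-0.22), with adjusted p of 0.563, 0.549, 0.563, 0.573 and 0.549. When HEM was set against the NON pools 2/15 and 11/14 and HOM against 4/13 and 5/10, so that no control was shared, the effects were of the same sign for 20 of 40 genes (17 higher and 3 lower in both) and of opposite sign for the other 20. Pearson's r across these 40 genes was 0.03 and Spearman's rho -0.32, given as a description, since the genes share pools and reference genes.

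The ratio of the reference genes to the positive control probes, which are added in equal amount to each assay, was 9.10 to 10.6 in NON, 9.22 to 10.4 in HEM and 8.30 to 12.0 in HOM. The HEM median over the 43 genes was 0.085 on the log2 scale with the reference genes and -0.039 with edgeR's TMM scaling, which centres on the target genes themselves. Under TMM the HEM log2 fold-changes were 0.22 for Ramp2, 0.21 for Foxo1 and 0.054 for Arrb1, and 0 genes passed. With scaling to the positive control probes 0 genes passed either, and all 3 kept their positive sign.

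The AM hindbrain at T2, with 2 pools in each group, offered pools that the PM comparison did not use. Of these, HEM 9 and HOM 5 were single mice by their labels. Ramp2 had 1554 and 1619 normalised counts in NON, 1862 and 1938 in HEM and 2339 and 1800.5 in HOM. Foxo1 had 2482 and 2728 in NON, 2992 and 3199 in HEM and 3487 and 2814 in HOM. For both genes all 4 transgenic AM pools were higher than both NON AM pools, as they also were for Pdk1, Stat3 and mTor, 5 of the 40 genes above background (12.5%). With 4 pools against 2, such separation arises readily without any effect of genotype. Over both genotypes the AM log2 fold-change was 0.32 for Ramp2 (SE 0.12, adjusted p = 0.272) and 0.26 for Foxo1 (SE 0.10, adjusted p = 0.272), of the size seen in PM but not past the threshold, with 0 of 43 genes called in AM (0%, and 3 at an unadjusted p under 0.05). Arrb1 had 14544 and 13954 in HEM, above the NON pools (13243 and 12778), and 13353 and 12611 in HOM, which straddled them. The fit of AM values against NON by genotype was chosen after the PM values were seen.

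The PM effect minus the AM effect was tested in 1 model of the 17 T2 hindbrain pools. It passed for 0 of 43 genes in HEM and 0 in HOM (0% each, with 1 at an unadjusted p under 0.05 in each). For c-Fos it was 0.33 in HEM (SE 0.52) and -0.81 in HOM (SE 0.52), with adjusted p of 0.888 and 0.993. HEM 9 and HOM 5 of the AM collection carry a single mouse number and a single age in the labels, while the PM pools carry 2 each. The labelled AM ages were 127 to 271 days in HEM, 133 to 224 days in HOM and 130 to 286 days in NON mice.

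**Figure D4:**
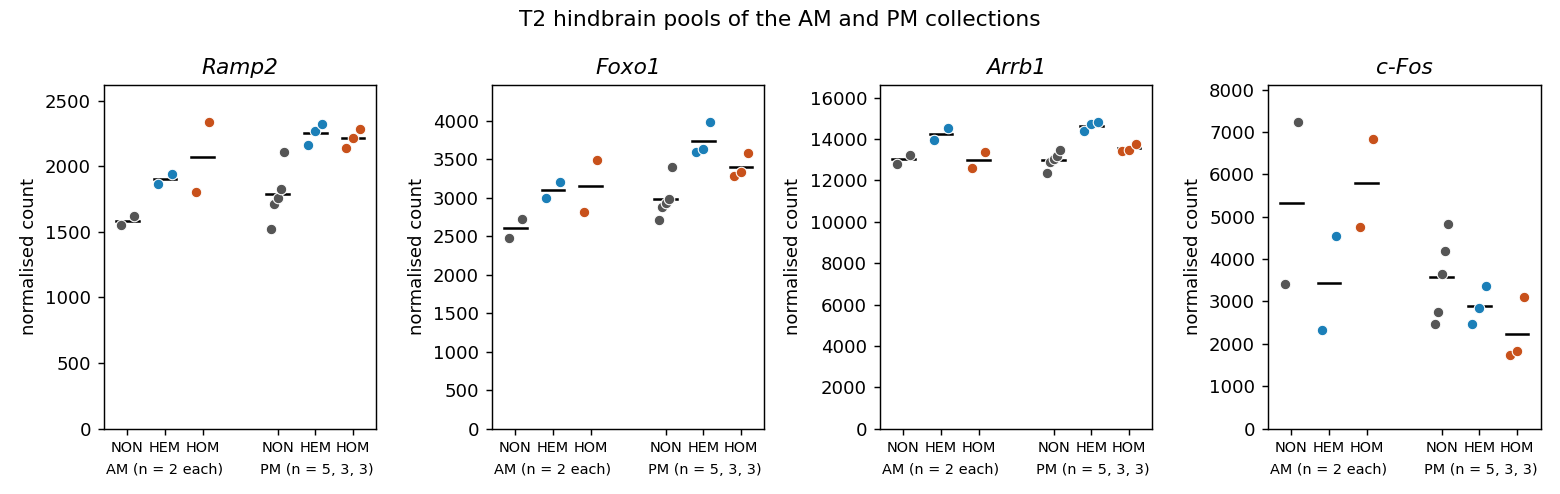
Normalised counts (y axis, linear from 0) of 4 genes in the T2 hindbrain pools of the AM and PM collections, with 1 point per pool and a line at each group mean. The AM points HEM 9 and HOM 5 are single mice. For Ramp2 and Foxo1 the transgenic pools lay above both NON pools in AM as well, among 5 of 40 genes (12.5%) that did so, with 0 genes called in AM. The AM values of c-Fos were widely spread.

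The other 3 regions of the same mice were set beside the hindbrain to ask whether its effects differed there, in 1 model of the 44 T2 PM pools with the pool as a block. For Ramp2, fits of each region alone gave HEM log2 fold-changes of 0.33 (hindbrain), 0.14 (midbrain), -0.0013 (left cortex) and 0.11 (right cortex). The HOM values were 0.31, -0.032, -0.20 and 0.0034 in the same order, so that the hindbrain had the highest value in both genotypes. The hindbrain effect exceeded that of the left cortex by 0.34 in HEM (SE 0.11, adjusted p = 0.0307) and 0.51 in HOM (SE 0.11, adjusted p = 0.00292). Against the midbrain the difference was 0.20 (adjusted p = 0.335) and 0.35 (adjusted p = 0.0804), and against the right cortex 0.24 (adjusted p = 0.211) and 0.32 (adjusted p = 0.128), none of which passed. With TMM in each region the HOM difference from the midbrain did pass, at 0.27 (adjusted p = 0.0471). The HOM difference from the left cortex also passed without the pool block and with TMM in each region, and the HEM one with neither. Without the HOM pool 6/9 the HOM difference was 0.37 (adjusted p = 0.0692), and the HEM one was lost in 6 of the 11 fits that left out a pool.

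Foxo1 in HEM had log2 fold-changes of 0.33, 0.059, 0.073 and -0.29 in hindbrain, midbrain, left cortex and right cortex, and in HOM 0.19, -0.15, -0.25 and -0.067. The hindbrain exceeded the right cortex by 0.62 in HEM (SE 0.14, adjusted p = 0.00744), which also passed in both alternatives but not without HEM 7/12 (adjusted p = 0.0698), and the left cortex by 0.44 in HOM (SE 0.14, adjusted p = 0.0454), which passed in neither. Arrb1 effects were positive in all 4 regions in both genotypes (0.018 to 0.17), and 0 of their 6 differences from the hindbrain passed.

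Across all 43 genes, the hindbrain effect differed from that of the midbrain for 0 genes in HEM (0%, with 5 at an unadjusted p under 0.05) and 1 in HOM (2.33%), from the left cortex for 7 (16.3%) and 6 (14.0%), and from the right cortex for 4 (9.30%) and 1 (2.33%). The midbrain gene was Npy, with -0.71 in HOM (SE 0.16, adjusted p = 0.00409): its log2 fold-change was 0.10 in the hindbrain and 0.81 in the midbrain (SE 0.052 and 0.22). It was lost without the HOM pool 6/9 (adjusted p = 0.203). The HEM effects of Calcr and Mc4r were lower in the hindbrain than in the left cortex, for Mc4r by -0.71, which was lost without HEM 5/10 (adjusted p = 0.116). For Calcr the size of that difference could not be measured, since NON left cortex had 22.3 ± 4.06 normalised counts (SD, n = 5) and was above background in 1 of 5 pools. Ptp1b, a phosphatase that limits insulin and leptin signalling, passed with the higher effect in the hindbrain in 3 of the 6 comparisons, and Akt2, Gsk3b and Irs2 in 2 each. Each of these 9 calls was lost in 1 to 8 of the 11 fits that left out a pool. Without HEM 5/10, 3 genes differed from the left cortex in HEM and 1 from the right, and without the pool block these counts were 2 and 2. For c-Fos the HEM effect was -0.31 in the hindbrain but 0.81, 1.21 and 1.11 in midbrain, left and right cortex (SE 0.42, 0.58 and 0.62), and the blocked differences of -0.62, -0.76 and -0.68 did not pass (adjusted p = 0.335, 0.15 and 0.289). The pool HEM 5/10 carried the positive values, with 10277, 26546 and 24575 normalised counts in these regions against 3749.7, 5013 and 4209 in HEM 7/12 and 2265, 3038 and 3142 in HEM 8/14. Without it the HEM effect of c-Fos was below 0 in all 4 regions, at -0.43, -0.042, -0.31 and -0.42 in hindbrain, midbrain, left and right cortex.

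**Figure D5:**
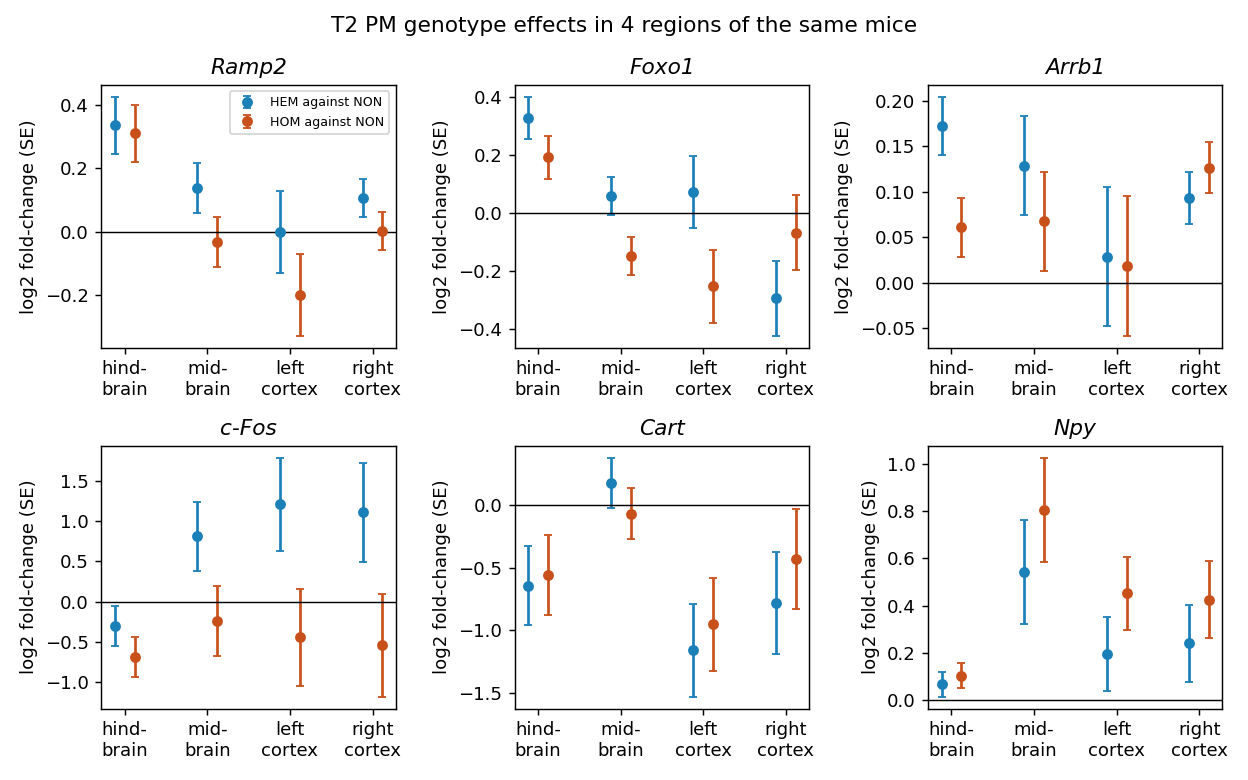
Log2 fold-changes against NON (points, with SE bars) of 6 genes in the T2 PM hindbrain, midbrain, left cortex and right cortex, from a fit of each region alone, with HEM in blue and HOM in orange. Ramp2 and Foxo1 have their highest values in the hindbrain in both genotypes, and the c-Fos values above 0 in HEM outside the hindbrain rest on the pool HEM 5/10.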

How the data were processed

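RNA pools were hybridised to a customised nCounter code set of 43 target genes, 3 reference genes (B2m and 2 others), 6 positive and 8 negative control probes. The authors deposited raw probe counts that were neither corrected for background nor normalised, and all columns were matched to samples by their labels (0 left unmatched). The tool and build behind the probes are not given in the sources used here, and the 43 target accessions were matched to RefSeq symbols. NanoStringDiff, which the methods name, was not used here.

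From the deposited counts, 11 T2 PM hindbrain pools were fitted in edgeR 4.0.16 (R 4.3.3) with 1 mean per genotype, the reference gene mean as library size and a prior count of 0.125. Genes were tested by quasi-likelihood and adjusted over 43 genes (Benjamini-Hochberg). Only the 11 pools were fitted, and fits of more pools were alternatives. Fold-changes are given with standard errors or 95% intervals. The test was checked on simulated data for HEM against NON, in 25 simulations. It called 32% of genes with a true log2 fold-change of 0.33 in size, 95% of those with 1 and 0.571% of those with 0. The simulated counts came from the fitted model itself, with the reference gene mean taken as exact. Error in the normalisation was therefore not part of this check. Among the 16 pairs of pools of 1 group, 0 were identical, and chi-square per degree of freedom was at least 6.82. P-values of fits without a block measure the spread between pools of different mice. In the region model, with the pool as a block, they measure the spread that remains between regions of the same pools. The AM and PM model held 17 pools and the region model 44 pools with the pool as a block.

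All genes may be named within their list. Values by pool are given for c-Fos, Pomc, Cart, Npy, Agrp, Socs3, Calcr, Ramp1, Ramp2, Ramp3, Lepr-b and Insr, for called genes and for the 5 largest log2 fold-changes of each comparison among genes above background; Gsk3b, Adrbk1, Akt2, Hdac5 and the genes named in the closing sections were added after their values were seen. The pools, genes and lists were chosen with earlier results of these data known.

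Alternatives were TMM, the positive control probes, leaving out each reference gene, DESeq2 1.42.0 (mean dispersion trend) with its own or the reference size factors, edgeR's likelihood-ratio test, limma 3.58.1 on log2 values with a pseudocount of 1 count, subtraction of the negative control mean, a filter on low counts, other sets of pools in the fit, age-matched or unshared NON pools, age-matched pools as a block, and leaving out each pool. The filter on low counts kept all 43 genes, so its fit equals the main fit. It is still counted among the alternatives in the tallies above and below. Figures were drawn with matplotlib 3.10.9 in Python 3.11.15.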

Additional observations from a re-analysis of the deposited data

Results flagged for a closer look

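In the NON group of 5 pools, 1 pool stood apart from the others on the log2 scale for 2 of the 40 genes above background, by Dixon's criterion, which chance meets in about 1 of 20 groups. Akt2 had 1302 normalised counts in NON 4/13, above the other 4 NON pools, and Hdc had 258 in NON 11/14, also the highest. The pools HEM 5/10, HEM 7/12 and HOM 6/9 exceeded that Akt2 value, with 1781, 1373 and 1441.

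The genotype effect differed between the hindbrain and another region of the same mice, by the test of the difference itself in edgeR with the pool as a block, in 19 cases, given here as log2 differences. Against the midbrain it was Npy in HOM, at -0.71. Against the left cortex the HEM effect differed for Calcr (-2.50, with Calcr above background in 1 of 5 NON left cortex pools, so that its size is not measurable), Mc4r (-0.71), Akt2 (0.46), Ramp2 (0.34), Irs2 (0.30), Ptp1b (0.25) and Gsk3b (0.16). The HOM effect differed there for Hdc (0.63), Ramp2 (0.51), Foxo1 (0.44), Adrbk1 (0.26), Pde3b (0.25) and Ptp1b (0.19). In the 11 fits that left out a pool, these 6 were lost in 9, 1, 7, 2, 6 and 7 fits in that order. Against the right cortex it differed in HEM for Foxo1 (0.62), Akt2 (0.45), Ptp1b (0.22) and Gsk3b (0.16), and in HOM for Irs2 (0.32). NON cortex had 57.7 ± 9.22 normalised counts of Hdc in the left cortex (SD, n = 5).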

How the results depend on the processing

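The HEM count of 3 genes fell to 0 with TMM, with the positive control probes, without 1 of the reference genes other than B2m, with DESeq2's own size factors, with NON pools not shared between genotypes and with age-matched pools as a block. It was 1 with the likelihood-ratio test, with only the 2 groups fitted and with age-matched NON pools. It was 2 with all hindbrain pools fitted, with or without those of low reference counts (Arrb1 lost). Without B2m, and with all T2 hindbrain pools fitted, it was also 2 (Ramp2 lost). Gsk3b was added, for 4 genes, with the reference size factors in DESeq2 and with the negative control mean subtracted. Without the third reference gene the count was 5. The HOM count of 0 became 1 (Ramp2) with age-matched NON pools. The count of 3 over both genotypes was 0 with TMM, the positive control probes, the block, and without the reference gene whose omission also gave 0 in HEM. It was 1 with DESeq2's size factors, and 2, without Arrb1, with limma, the likelihood-ratio test, all hindbrain pools and no B2m. HOM against HEM gave 0 in all 16 alternatives that left out no pool. Leaving out single pools gave 0 to 3 genes for HEM (0 without HEM 7/12, 1 without NON 4/13 or 6/9), 0 to 1 for HOM (1 without NON 11/14), 0 to 1 for HOM against HEM (1 without HOM 6/9) and 0 to 3 over both (0 without HEM 7/12, HOM 6/9, NON 4/13 or NON 6/9, and 1 without NON 2/15 or 5/10). The cause of these changes was not tested. Matching of controls by litter or age is part of the design. Of 7 pairs of pools of like age, the deviations of 3 pairs correlated above 0.1, and the range was -0.33 to 0.81. The pairs of identical ages, HEM 5/10 with NON 11/14 and HOM 6/9 with NON 4/13, gave 0.44 and 0.22. These correlations ran over 43 genes without scaling, so that widely spread genes weigh heavily, above all Pomc, with a 15.1-fold range over the 11 pools. Values without Pomc were not computed. The correlations therefore cannot decide whether pools of like age deviate together. The block gave 0 genes in all 4 comparisons. Ramp2, Foxo1 and Arrb1 kept a positive sign against NON in every fit.

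Of the values followed across alternatives (Ramp2, Foxo1, Arrb1, c-Fos, Cart, Pomc, Gsk3b and Calcr), those that changed sign were c-Fos in HEM (0.14 with NON pools not shared), Pomc in HEM (-0.11 with limma, -0.13 with the block and, leaving out single pools, -1.35 without HEM 7/12 to 0.84 without NON 2/15) and the small Ramp2 difference of HOM against HEM (0.042 with TMM, 0.052 with the positive control probes, 0.017 without B2m, 0.0019 with DESeq2's size factors and 0.018 with the block). With NON pools not shared, 5 of all 40 genes changed sign in HEM (Calcr-1b, Hdc, Pde3b, Pias3 and c-Fos) and 5 in HOM (Akt2, Hrh1, Pik3r1, Ramp3 and Stat3), none of them called. The region differences also moved. With TMM in each region they were 3 and 3 genes for midbrain HEM and HOM, 3 and 2 for the left cortex and 1 and 0 for the right cortex. Without the pool block they were 0 in HOM for the midbrain, 2 and 2 for the left cortex, and 2 and 0 for the right cortex. Leaving out single pools in all regions, chosen after seeing the data, gave 0 to 1 and 0 to 4 genes for midbrain HEM and HOM, 3 to 9 and 1 to 12 for the left cortex and 0 to 6 and 0 to 4 for the right cortex. The 0 genes of the PM minus AM differences stayed 0 with all hindbrain pools in 1 model. The mean over both genotypes was not refitted with only the 2 groups or with age-matched NON pools, which define no such mean. Depth limits Iapp, Ins1, Ins2, Agrp, Hcrt, Socs3 and the Calcr isoform probes, whose counts were near background.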

Other observations

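Several genes of the panel were almost level over the 11 hindbrain pools. Stat3, the transcription factor that leptin activates, had 4074, 4374, 4268, 4073 and 4291 normalised counts in NON, 4269, 4438 and 4344 in HEM and 4189, 4364 and 4241 in HOM, with 95% intervals of the log2 fold-change of -0.047 to 0.14 in HEM and -0.076 to 0.11 in HOM. Gsk3a, a kinase downstream of Akt, gave -0.082 to 0.13 and -0.031 to 0.19, and Pik3ca, the catalytic subunit of PI3-kinase, -0.14 to 0.12 and -0.10 to 0.16. Pik3r1, its regulatory subunit, had 5599, 6728 and 6225 in HEM against 6669, 6922, 6661, 6637 and 6789.5 in NON (log2 fold-change -0.12, adjusted p = 0.338), with 2 HEM pools below every NON pool. Its values in HOM were 6636, 7223 and 6435 (log2 fold-change 0.0061).

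The NON pool 2/15 was the lowest of 11 for 12 of 40 genes, more than any other pool, and its reference gene mean of 7204 counts was the highest of the NON pools. The age-matched pools HEM 7/12 and HOM 7/10 had the highest Pomc of their genotypes, at 639.9 and 1059 normalised counts, and the NON pool 6/9 of like ages had 162.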
